A study of Sus scrofa with 92 samples.

Results

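Livers of carbohydrate prefed (CPF) and fasted (FS) pigs were compared at FR8, the biopsy taken 8 hours after resuscitation from hemorrhagic shock began. The comparison held 22 of the 92 libraries of the series. They were the FR8 libraries of 4 CPF and 18 FS animals, each from a separate pig, and were chosen by the fed status and time point in the sample labels. The fifth CPF library of this timepoint, from CPF animal 1, was left out because its sequencing failed. All 23 pigs were juvenile Yorkshire-Landrace males that had been fasted overnight, so that by design the groups differed in a bolus of dilute Karo syrup, a mixture of sugars, that the CPF animals received 1 hour before induction of anesthesia. Both groups then went through splenectomy, a blunt chest injury from a captive bolt device, hemorrhage, a liver crush injury, a shock period and limited and then full resuscitation. By the labels, 2 of the 4 CPF animals (2 and 3) and 3 of the 18 FS animals (2, 12 and 15) were animals that died, so feeding and survival cannot be fully told apart. The question was whether the fed state before injury left a difference in liver mRNA at this time.

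In a fed liver, glucose entering the hepatocyte is stored as glycogen with the help of subunits that bring a phosphatase to the glycogen particle (PPP1R3B, PPP1R3C). In a fasted liver, fatty acids are carried into mitochondria by carnitine palmitoyltransferases (CPT1A, CPT2), ketone bodies are formed, glucose is made from lactate and amino acids, and the nitrogen of those amino acids leaves as urea. Shock and trauma add an acute phase response, in which the hepatocyte makes more fibrinogen and other plasma proteins and less albumin, together with stress and immediate early genes.

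The CPF libraries held 8855156 to 11929774 counts on genes (median 11702279) and the FS libraries 11159561 to 15547165 (median 13265543), so the CPF libraries were shallower. Several FS libraries stood apart. In the FR8 library of FS animal 8, 639 genes with at least 50 counts in each of the other 21 libraries had 0 counts. These genes carried a median of 13.7% of the counts elsewhere, and HBB, SERPINA7, HSPA8, MID1IP1 and TLR2 were among them, so the FS range of such a gene begins at 0. The FR8 libraries of FS animals 13, 14 and 16 were closest to the Baseline (B) libraries: their median Spearman's rho over 8309 genes was 0.92 to 0.95 with the Baseline libraries and 0.85 with the other FR8 libraries. For the same 3 animals the Baseline library had 0.197 to 52.7 CPM of albumin (CPM, counts scaled to the library's total), and every other Baseline library at least 1000. These 3 Baseline libraries were left out of each rho with Baseline. The FR8 library of FS animal 7 was closest to the FR2 libraries (0.94 against 0.89 with FR8) and that of FS animal 6 to the FR20 libraries (0.93 against 0.90). The 4 CPF libraries had a rho of 0.91 to 0.93 with the other FR8 libraries. CPF animal 4 was closest to FR20, by a margin of 0.0047. All libraries stayed in the comparison as labelled, and the main results are also given without FS animals 6, 7, 8, 13, 14 and 16, which leaves 12 FS libraries. This second set was chosen after seeing the data, and is called here the 12 FS libraries. It leaves out libraries closer to another timepoint than to FR8 by a rho of more than 0.01, and FS animal 8 for its genes at 0. Only FS libraries met these rules, and leaving them out narrows the FS spread. The p-values and calls with the 12 FS libraries can therefore be too favorable.

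**Figure D1:**
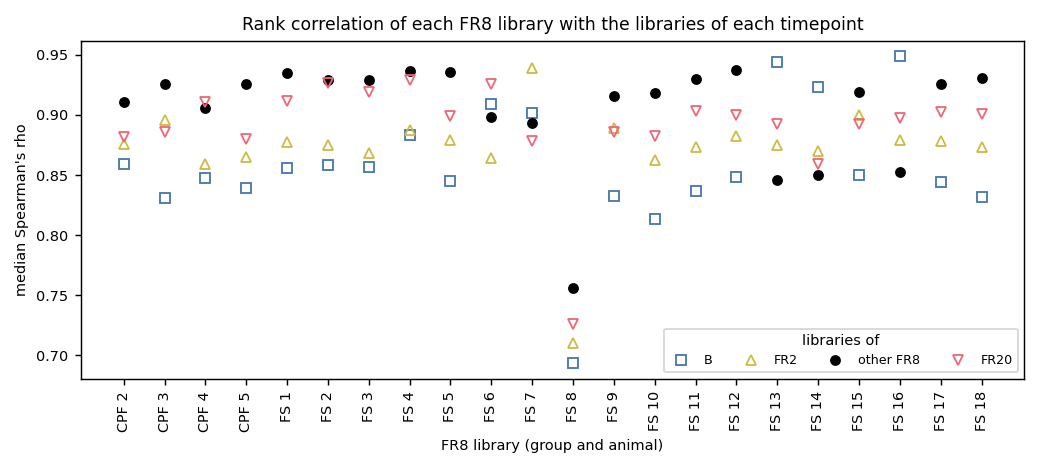
Median Spearman's rho (y axis) of each of the 22 FR8 libraries (x axis) with the libraries of each timepoint, Baseline without the 3 libraries of low albumin. Filled circles are the other FR8 libraries. The circle is the lowest of the 4 marks in FS 13, 14 and 16, where the Baseline square is highest (0.92 to 0.95), and the 4 marks of FS 8 lie between 0.693 and 0.756.

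The tissue label was checked with marker genes. The 7 hepatocyte markers in the table summed to 53210.0, 52310.0, 82230.0 and 47740.0 CPM in CPF animals 2, 3, 4 and 5 and from 39730.0 to 155700.0 CPM (median 56720.0) in FS animals, the highest being FS animal 16. Without the 6 libraries the FS sums ended at 67360.0 CPM. Striated muscle markers, which mark tissue other than liver, were near 0 in the CPF libraries (at most 0.42 CPM for the 6 in the table) and had a median of 0.185 CPM in the FS libraries, with 82.1 in FS animal 11.

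Between the groups no gene passed both thresholds, a log2 fold change of 1 or more in either direction at an adjusted p below 0.05 (edgeR's quasi-likelihood test, 0 of 11951 genes tested, 0%). None passed on adjusted p alone, and the smallest adjusted p was 0.752. An unadjusted p under 0.05 was reached by 617 genes (5.16%), 254 with higher levels in CPF animals (2.13%) and 363 with lower levels (3.04%). With the 12 FS libraries, 0 of 11627 genes passed (0%) and 822 reached an unadjusted p under 0.05 (7.07%). Every gene named below is therefore given by its values and an unadjusted p, and none is called different by edgeR. Fold changes are CPF minus FS on the log2 scale, with their standard error.

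**Figure D2:**
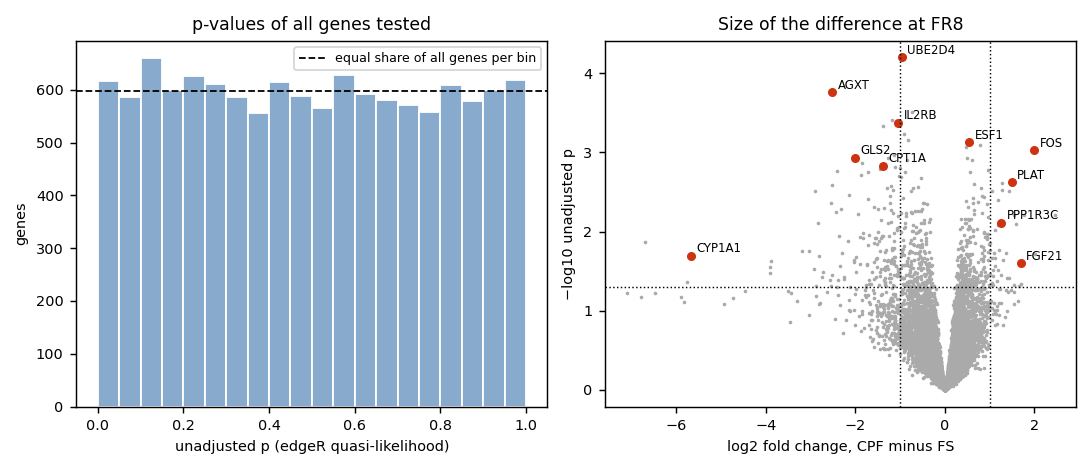
Left, number of genes (y axis) in 20 equal bins of the unadjusted p (x axis) for the 11951 genes tested, with a dashed line at an equal share per bin; the bins lie close to the line and 617 genes fall in the lowest. Right, −log10 of the unadjusted p against the log2 fold change (CPF minus FS) of each gene, with dotted lines at p = 0.05 and at −1 and 1; the labelled genes are in red and run from −5.67 for CYP1A1 to 1.998 for FOS.

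The intervals show which differences the 22 libraries leave possible. For 6829 genes (57.1%) the 95% interval of the log2 fold change lay within −1 to 1, and with the 12 FS libraries for 8441 of 11627. The median standard error was 0.31 over all genes, and 0.235 with the 12 FS libraries. Point estimates of at least 1 were found for 67 genes and of −1 or less for 356. Of those 356, 123 still had an estimate of −1 or less with the 12 FS libraries, and of the 67 high ones 35 kept 1 or more. The excess of low estimates was thus smaller without the libraries that stood apart (177 of −1 or less against 74 of 1 or more).

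The 4 CPF values lay wholly outside the range of the 18 FS values in 5 genes (0.0418%), 2 above (0.0167%) and 3 below (0.0251%). Of these, UBE2D4, a ubiquitin-conjugating enzyme, had the smallest p of all genes. It measured 5.47, 3.68, 4.91 and 4.73 CPM in CPF animals 2, 3, 4 and 5 and 6.36 to 14.4 CPM (median 8.34) in the FS animals, a log2 fold change of −0.97 ± 0.20 (unadjusted p = 6.29e-05, adjusted p = 0.752, edgeR). Every CPF value was lower than every FS value, and so it was with the 12 FS libraries, where the fold change was −0.82. The others, named after their values were seen, were TMCO6 (−0.40 ± 0.17), SUPT16H, a histone chaperone subunit (0.20 ± 0.10), and 2 genes without a symbol. Against the 12 FS libraries 13 of 11627 genes did not overlap (0.112%). DESeq2's Wald test, an alternative, called 7 of 11951 genes (0.0586%), all with lower levels in CPF animals. AGXT, GLS2 and IL2RB are the 3 of these with a symbol, and UBE2D4 and RASA3 passed on adjusted p but not on fold change. DESeq2 with the 12 FS libraries called 9 of 11627 genes (0.0774%), 8 with lower levels, AGXT and BFAR among them, and 1 with higher, SERPINA7.

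PPP1R3C, a glycogen-targeting subunit of protein phosphatase, measured 108, 69.1, 183 and 308 CPM in CPF animals 2, 3, 4 and 5 and 15.3 to 169.9 CPM (median 71.5) in the FS animals. CPF animals 4 and 5 exceeded every FS animal, and CPF animal 3 lay just under the FS median. Its fold change was 1.25 ± 0.43 (unadjusted p = 0.0078, edgeR), with a 95% interval of 0.36 to 2.14, and 1.07 with the 12 FS libraries. PPP1R3B, another such subunit, measured 78.5, 14.5, 132 and 98.8 CPM against 9.87 to 74.9 CPM (median 35.5). CPF animals 2, 4 and 5 exceeded every FS animal, and CPF animal 3 was near the lowest of them, which gave 1.11 ± 0.44 (unadjusted p = 0.0185, edgeR). One more subunit, PPP1R3G, had an estimate of −1.33 ± 0.61 at low levels (at most 0.789 CPM in CPF animals). For GYS2, the liver glycogen synthase, the estimate was −1.59 with 18 and −0.27 with 12 FS libraries. Of the 12 glycogen genes tested, 7 had a positive estimate (51.5% of all genes did), with a median of 0.08, against 0.01 over all genes. With the 12 FS libraries 8 of 12 were positive, where 53.1% of all genes were.

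**Figure D3:**
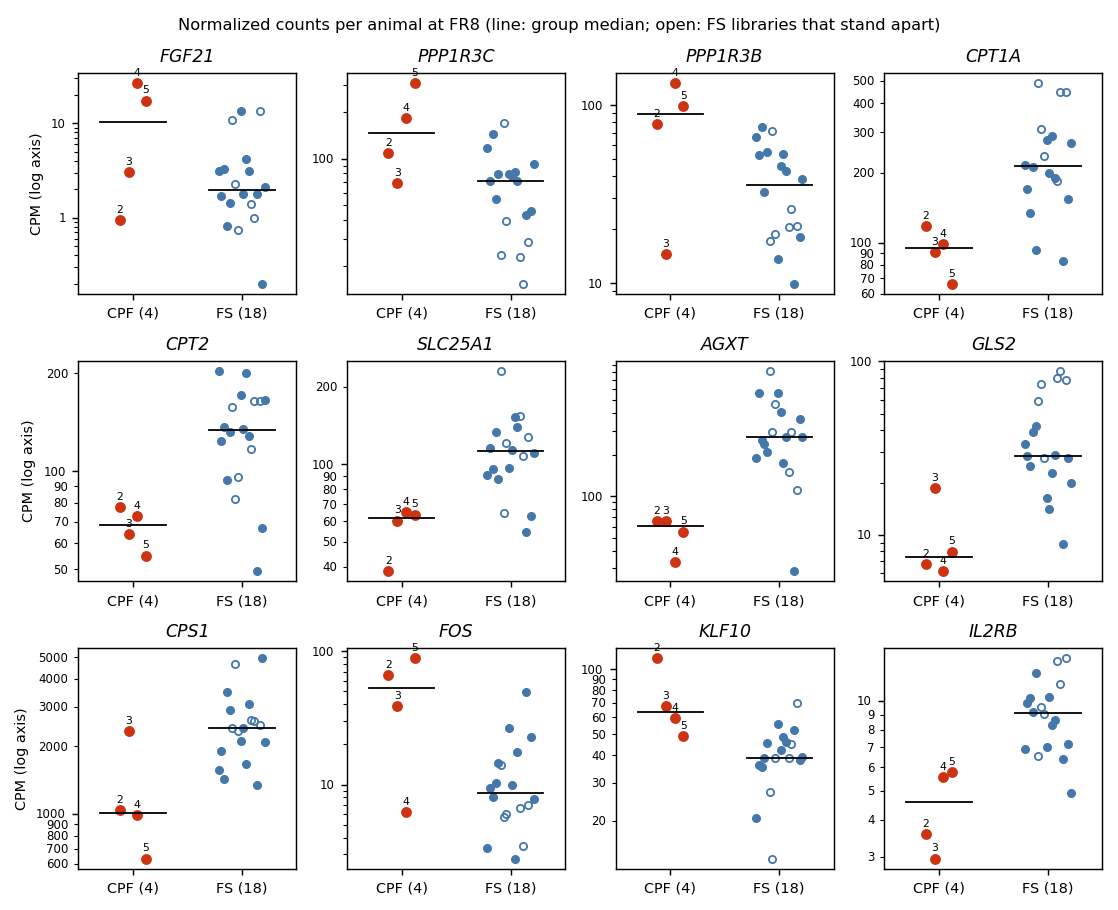
Normalized CPM (y axis, log scale) of 12 genes in the 4 CPF animals (red, with animal numbers) and the 18 FS animals (blue, open for the 6 that stood apart), with lines at the group medians. FGF21 is high in CPF animals 4 and 5, AGXT and CPT1A are low in all 4 CPF animals, and FS animal 15 lies below the CPF animals for AGXT.

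Over the 16 glycolysis genes the median was −0.03 and 6 of 16 were positive, with PFKFB1, an enzyme that sets the level of a glycolysis regulator, lowest at −1.05 (−0.32 with the 12 FS libraries). Of the genes the study's text names for carbohydrate metabolism, chosen there on these samples, GPD2, a mitochondrial glycerol phosphate dehydrogenase, had 0.55 ± 0.26 (unadjusted p = 0.0468, edgeR) and ENO3 and PYGM, the muscle forms of enolase and glycogen phosphorylase, −0.38 and −0.33, both of which turned positive without FS animal 11. HK2 did not pass the filter on low counts. The kinase PDK4, which closes the pyruvate dehydrogenase gate in fasting, had −1.24 ± 0.99, with 56.6, 208, 27.9 and 27.4 CPM in CPF animals 2, 3, 4 and 5. CPF animal 3 stood above the others.

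All 9 gluconeogenesis genes had negative estimates with the 18 FS libraries, with a median of −0.86, and this depended on the libraries that stood apart. With the 12 FS libraries 2 of 9 were positive and the median was −0.18. TAT, tyrosine aminotransferase, went from −1.65 to 0.01: its highest FS value was 5721 CPM, in FS animal 16. GOT1, the cytosolic aspartate aminotransferase, measured 76, 97.1, 49.2 and 54.1 CPM in the CPF animals and 72.9 to 324 CPM (median 122) in FS animals. CPF animals 4 and 5 were below every FS animal. Its estimate was −1.06 ± 0.38 (unadjusted p = 0.00967, edgeR) and −0.68 with the 12 FS libraries. PC, pyruvate carboxylase, had −0.27, the highest estimate of the list.

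CPT1A and CPT2, the carnitine palmitoyltransferases, were at the low end of the FS range in all 4 CPF animals. CPT1A, which controls the entry of fatty acids into mitochondria, measured 118, 90.8, 98.6 and 66.1 CPM in CPF animals 2, 3, 4 and 5 and 83.2 to 489 CPM (median 214) in FS animals. CPF animal 5 was below every FS animal and the other 3 lay at the low end of the FS range. The fold change was −1.39 ± 0.39 (95% interval −2.19 to −0.59, unadjusted p = 0.00146, adjusted p = 0.763, edgeR). With the 12 FS libraries, of which the highest reached 289 CPM, it was −1.03. CPT2, which acts after it on the inner membrane, measured 77.7, 64.2, 72.7 and 55.1 CPM in CPF animals and 49.2 to 204 CPM (median 134) in FS animals, −0.98 ± 0.28 with 18 and −0.99 with 12 FS libraries (unadjusted p = 0.00205 and 0.00312, edgeR). In both genes FS animal 15 was the lowest FS animal.

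Of the 19 genes of the fatty acid oxidation and ketogenesis list 3 had a positive estimate, where 51.5% of all genes did. On the negative side 3 (CPT1A, CPT2 and BDH1) reached an unadjusted p under 0.05, where 3.04% of all genes did (2.13% on the positive side). The list's median was −0.35, and −0.14 with the 12 FS libraries. BDH1, which makes the ketone body hydroxybutyrate, had −2.25 with 18 and −0.35 with 12 FS libraries, since FS animals that stood apart reached 324 CPM against 49.95 in the rest. FGF21, a hormone that the liver secretes in fasting and also after sugar loads, was the one member with an unadjusted p under 0.05 on the positive side. It measured 0.943, 3.02, 26.5 and 17.3 CPM in CPF animals 2, 3, 4 and 5 against 0.197 to 13.4 CPM (median 1.94). CPF animals 4 and 5, which lived, were above every FS animal, and CPF animals 2 and 3, which died, were within the range. The estimate was 1.69 ± 0.71 (unadjusted p = 0.0252, edgeR).

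SLC25A1, the mitochondrial citrate carrier that supplies lipid synthesis, measured 38.3, 60.4, 65.4 and 63.7 CPM in CPF animals and 54.4 to 232 CPM (median 112) in FS animals, with an estimate of −1.01 ± 0.28 and of −0.87 with the 12 FS libraries. CPF animal 2 was below every FS animal, and the others lay at the low end. The lists of lipid synthesis, in contrast, turned with the choice of FS libraries. In the fatty acid synthesis list, 4 of 12 genes were positive with all FS libraries (median −0.65) and 11 of 12 with the 12 FS libraries (median 0.24). LPIN1, a phosphatidate phosphatase, was the lowest, −2.33 against 0.12. MID1IP1, a partner of acetyl-CoA carboxylase, had 1.01 ± 0.45 (unadjusted p = 0.0347, edgeR) and 0.84 (unadjusted p = 0.00279) with the 12. FS animal 8 is at 0 for this gene. It measured 27.4, 12.8, 27.1 and 27 CPM in the CPF animals, where animals 2, 4 and 5 exceeded the highest FS value of 20.9 CPM. Of the 18 cholesterol genes 0 had a positive estimate with all FS libraries (median −0.84) and 9 with the 12 FS libraries (median −0.02). IDI1, an isomerase of the pathway, went from −2.38 to 0.01.

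**Figure D4:**
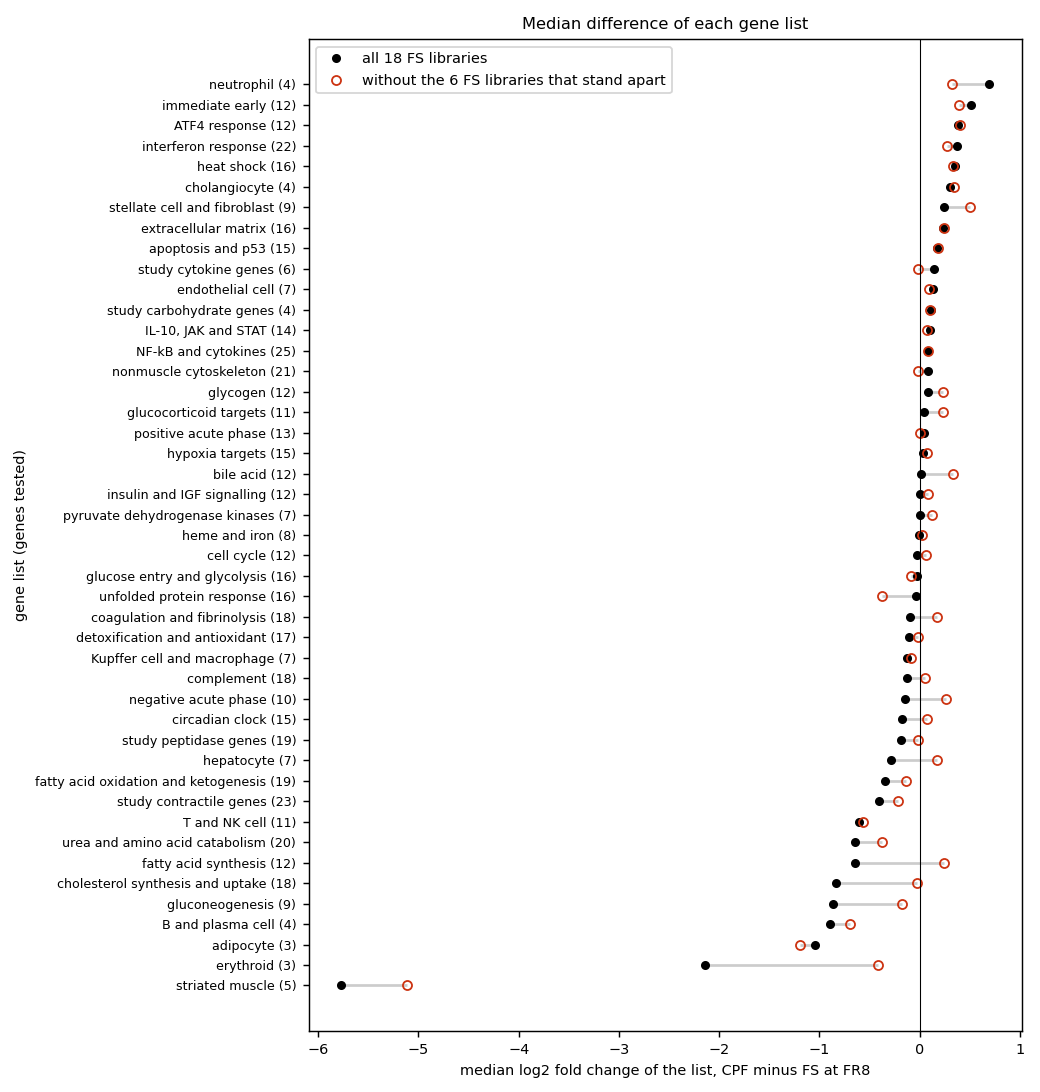
Median log2 fold change (x axis, CPF minus FS at FR8) of each gene list with at least 3 genes tested (y axis, number of genes in parentheses), with all 18 FS libraries (filled) and with the 12 FS libraries (open). Cholesterol synthesis moves from −0.84 to −0.02 and fatty acid synthesis from −0.65 to 0.24, while urea and amino acid catabolism stays below 0 (−0.64 and −0.37).

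The urea and amino acid catabolism list had more members at an unadjusted p under 0.05 than any other list, and AGXT, which is not in it, had the lowest p of the metabolic genes. AGXT, which transfers the amino group of alanine to glyoxylate, measured 66.2, 65.9, 33.1 and 55.3 CPM in CPF animals 2, 3, 4 and 5 and 28.3 to 820.5 CPM (median 269) in FS animals. All 4 CPF values lay below 17 of the 18 FS values, and FS animal 15, which died, was lower still. The fold change was −2.52 ± 0.57 (95% interval −3.69 to −1.35, unadjusted p = 0.000173, adjusted p = 0.763, edgeR). It was −2.42 with the 12 FS libraries, from −2.62 to −2.34 with 1 CPF animal left out, and −2.54 with a term for survival. DESeq2 called this gene (adjusted p = 0.000758, and 0.000131 with the 12 FS libraries).

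GLS2, the liver glutaminase, measured 6.79, 18.6, 6.13 and 7.99 CPM in CPF animals 2, 3, 4 and 5 against 8.83 to 88.6 CPM (median 28.6). CPF animals 2, 4 and 5 were below every FS animal, and CPF animal 3 was among the low FS values. The fold change was −1.999 ± 0.54 (unadjusted p = 0.00116, adjusted p = 0.763, edgeR) and −1.36 with the 12 FS libraries. DESeq2 called it with all FS libraries (adjusted p = 0.0372) and not with the 12 (adjusted p = 0.054).

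CPS1, which starts the urea cycle in the mitochondrion, measured 1042, 2336, 986 and 632 CPM in CPF animals 2, 3, 4 and 5 and 1349 to 4965 CPM (median 2406) in FS animals, so that 3 CPF animals lay below the FS range and CPF animal 3 near its median. Its estimate was −1.04 ± 0.35 (−0.96 with the 12 FS libraries). The estimates for ASS1 and ASL, which make and split argininosuccinate, were −0.95 ± 0.38 and −1.07 ± 0.38 (−0.77 and −0.77). ARG1, the arginase that releases urea, had the highest estimate of the list, 0.18, and −0.50 without CPF animal 3. A second ARG1 identifier (ENSSSCG00000023773), which is not in the list, had −0.49 ± 0.56, and 0.08 with the 12 FS libraries. Enzymes of tyrosine breakdown, HPD and FAH, had −0.94 and −0.71 (−0.85 and −0.51 with the 12 FS libraries). BHMT, which remethylates homocysteine, had −1.20 and −0.72. Over the 20 genes of the list, which holds neither AGXT nor GOT1, 3 had a positive estimate and 8 (GLS2, CPS1, ASS1, ASL, HPD, FAH and BHMT among them) reached an unadjusted p under 0.05, all on the negative side, where 3.04% of all genes did. For the 12 FS libraries these counts were 6 positive and 7 at an unadjusted p under 0.05 on the negative side, where 402 of 11627 genes had such a p. FS animal 15 was the lowest FS animal for AGXT, GLS2, CPS1, ASS1, ASL, HPD and FAH. This was not limited to these genes. FS animal 15 also had the lowest FS sum of the hepatocyte markers (39730 CPM) and of the positive acute phase, complement, coagulation and bile acid lists. The lowest sums of the glycolysis, gluconeogenesis and glycogen lists were in FS animals 7, 10 and 5.

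Immediate early genes, which cells switch on within minutes of a stimulus, had positive estimates in 11 of 12 members (median 0.51), 4 of them at an unadjusted p under 0.05, where 2.13% of all genes were. For the 12 FS libraries this was 10 of 12 and 3, with a median of 0.39, where 420 of 11627 genes had such a p on the positive side. FOS, a subunit of the transcription factor AP-1, measured 66.5, 39, 6.22 and 89.3 CPM in CPF animals 2, 3, 4 and 5 and 2.77 to 49.8 CPM (median 8.7) in FS animals. CPF animals 2 and 5 exceeded every FS animal, CPF animal 3 exceeded all but FS animal 15, and CPF animal 4 lay below the FS median. The fold change was 1.998 ± 0.53 (95% interval 0.91 to 3.09, unadjusted p = 0.000944, adjusted p = 0.763, edgeR), and 1.72 with the 12 FS libraries. JUNB, MYC and IER2 had 0.85 ± 0.35, 0.83 ± 0.34 and 0.66 ± 0.31. JUNB did not keep its direction in the animals that lived, where it was −0.04.

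The 12 genes with a symbol that had the smallest p on the positive side were FOS and 11 more, with an unadjusted p from 0.000748 for ESF1 to 0.00351 for KLF10 (edgeR). KLF10, a transcription factor induced by TGF-beta and by glucose, measured 113, 67.5, 59.3 and 49.2 CPM in CPF animals 2, 3, 4 and 5 against 13.3 to 70.0 CPM (median 39.1). All CPF values were above the FS median, and CPF animal 2 was above the FS range. Its estimate was 0.82 ± 0.25 and 0.79 with the 12 FS libraries. BHLHE40, a repressor in the circadian clock, had 0.81 ± 0.24 and RND1, a small GTPase that rounds cells, 1.42 ± 0.43. PLAT, the tissue plasminogen activator, measured 17.8, 99.5, 9.82 and 31.9 CPM in CPF animals and 6.48 to 41.7 CPM (median 10.17) in FS animals, with 1.497 ± 0.44. CPF animal 3, which died, was the one above the FS range. PROCR, the endothelial protein C receptor, had 1.06 ± 0.32, and LOX, which crosslinks collagen, 1.29 ± 0.39. ANXA4, an annexin, had 0.79 ± 0.20, TPM1, a tropomyosin, 0.49 ± 0.13, ATL3, which shapes the endoplasmic reticulum, 0.56 ± 0.16, ESF1, a nucleolar protein, 0.54 ± 0.14, and TNFRSF10C, a decoy receptor for TRAIL, 0.97 ± 0.27. Apart from these 12, PLAU, the urokinase, had 0.81 ± 0.38 (unadjusted p = 0.0419, edgeR).

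In the heat shock list 13 of 16 genes were positive (median 0.35), beside 51.5% of all genes. The chaperones DNAJB1, DNAJA1 and HSP90AB1 had 0.89 ± 0.39, 0.85 ± 0.41 and 0.40 ± 0.19. No member of that list with the 12 FS libraries reached an unadjusted p under 0.05. In the ATF4 list, the amino acid and stress response, 10 of 12 were positive (median 0.38). ATF4 itself had 0.49 ± 0.20 (unadjusted p = 0.0196, edgeR) and ASNS, its target asparagine synthetase, 0.91 ± 0.54, with FS animal 8 at 0. CPF animals 2, 4 and 5 were above every FS animal for ATF4. The unfolded protein response had a median of −0.03, and −0.37 with the 12 FS libraries. In the apoptosis and p53 list, 11 of 15 were positive. MCL1, a survival protein, measured 54, 68.6, 56.5 and 54.6 CPM in CPF animals 2, 3, 4 and 5 against 13.3 to 57.3 CPM (median 39.1), with 0.61 ± 0.24. Every CPF value was above the highest of the 12 FS libraries, 51.3 CPM. The death receptor FAS and CASP8, the caspase it activates, had 0.72 ± 0.33 and 0.66 ± 0.25.

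The table holds a pair of identifiers for CRP, the C-reactive protein. The one with more reads, which stands in the list, had 0.04 ± 0.38, and the other (ENSSSCG00000021186) 0.85 ± 0.37 (95% interval 0.09 to 1.61, unadjusted p = 0.0296, adjusted p = 0.955, edgeR), and 0.735 with the 12 FS libraries. The second identifier measured 1156, 1094, 525 and 2358 CPM in CPF animals 2, 3, 4 and 5 and 203 to 1499 CPM (median 646) in FS animals, with CPF animal 5 above them all, and how reads were split between the pair was not tested. Of the 13 list members, 1 identifier for each gene, 7 had a positive estimate and 0 reached an unadjusted p under 0.05, with a median of 0.04, and the estimates ran from −0.42 for LBP, which binds endotoxin, to 0.30 for FGA, the fibrinogen alpha chain. The 95% interval for FGA was −0.65 to 1.24, so differences of either sign within those bounds remained possible. Of the negative acute phase genes, SERPINA7, which carries thyroid hormone, had 0.97 ± 0.56 with all FS libraries, FS animal 8 being at 0, and 1.23 (unadjusted p = 0.000106, edgeR) with the 12. It measured 171, 57.7, 176 and 157 CPM in CPF animals 2, 3, 4 and 5 and 33.1 to 106 CPM (median 60.4) in the 12 FS animals, and CPF animals 2, 4 and 5 were above them all. SERPINA6, which carries cortisol, went from −1.66 to 0.23, its highest FS values being those of FS animals 13, 14 and 16. In the NF-kB and cytokine list 15 of 25 were positive (median 0.08), and 0 reached an unadjusted p under 0.05 on that side. CCL5, a chemokine of T cells, had −0.83 ± 0.34. IL10 was within 0 to 1.64 CPM (median 0.851) in FS animals and measured 1.13, 1.12, 0.0818 and 1.58 CPM in CPF animals, with 0.06 ± 0.56, and STAT3, which transmits its signal, had −0.12 ± 0.41. In the interferon list 18 of 22 were positive (median 0.37), beside 51.5% of all genes. With the 12 FS libraries 17 of 21 were positive (median 0.27), beside 53.1% of all genes. The list summed to 228, 403, 839 and 1200 CPM in CPF animals 2, 3, 4 and 5. The FS sums ran from 258 to 2230 CPM (median 366), so CPF animal 2 was below every FS animal and the others were within the range. MX1, an antiviral GTPase, measured 19.3, 68, 117 and 375 CPM in CPF animals 2, 3, 4 and 5 against 19 to 459 CPM (median 36.1), all within the FS range. PARP14 had 0.94 ± 0.34.

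IL2RB, a chain of the interleukin receptors of T and NK cells, measured 3.58, 2.96, 5.56 and 5.78 CPM in CPF animals 2, 3, 4 and 5 and 4.91 to 13.9 CPM (median 9.12) in FS animals. CPF animals 2 and 3 were below every FS animal, and CPF animals 4 and 5 exceeded only FS animal 18. The fold change was −1.04 ± 0.25 (unadjusted p = 0.000419, adjusted p = 0.763, edgeR), and −0.91 with the 12 FS libraries. DESeq2 called it with all FS libraries (adjusted p = 0.0447). PIK3CD, a leukocyte phosphoinositide kinase, had −0.85 ± 0.23, SKAP1, a T cell adaptor, −1.84 ± 0.51 at no more than 3.56 CPM in any animal, GPSM3, a modulator of G protein signalling, −0.92 ± 0.23, and RASA3, a GTPase-activating protein for Ras and Rap, −0.73 ± 0.17.

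Of 11 T and NK cell markers tested, 1 had a positive estimate and 4 reached an unadjusted p under 0.05 on the negative side (GZMK −1.75, CD5 −1.13, CD8A −0.96 and CD4 −0.70), beside 51.5% and 3.04% of all genes tested, with a median of −0.61 and of −0.56 with the 12 FS libraries. Their summed level was 47.2, 27.8, 34.8 and 30.6 CPM in CPF animals 2, 3, 4 and 5 and from 27 to 93.5 CPM (median 48.1) in FS animals, so the groups overlapped. With the 12 FS libraries 0 of these markers had a positive estimate. On the negative side 2 reached an unadjusted p under 0.05, where 402 of 11627 genes did. Of 4 B and plasma cell markers 0 had a positive estimate (median −0.90), CD79B, a part of the B cell receptor, having −1.99 ± 0.81. With the 12 FS libraries the median was −0.69 and 0 reached an unadjusted p under 0.05. The 5 B and plasma cell markers in the table were low. They summed to 10.4, 6.64, 9.49 and 7.99 CPM in CPF animals 2, 3, 4 and 5. The FS sums ran from 3.95 to 20.9 CPM (median 12.3), so all CPF sums lay within the FS range. In a bulk biopsy fewer cells of a type and less RNA per cell cannot be told apart, and the part of these cells in the estimates of IL2RB, PIK3CD, SKAP1 and CCL5 was not tested. Kupffer cell markers had a median of −0.12 and endothelial markers of 0.14, with PECAM1, an adhesion molecule of endothelium, at 0.55 ± 0.19. Neutrophil markers had a median of 0.69 over 4 genes, 0.33 with the 12 FS libraries and 0.0 with a term for survival. Their sum was 18, 39, 4.58 and 8.51 CPM in CPF animals 2, 3, 4 and 5 and from 1.16 to 33 CPM (median 8.73) in FS animals. CPF animals 2 and 3, with the higher sums, were those that died. The median of stellate cell and fibroblast markers was 0.24, and of cholangiocyte markers 0.30. Erythroid genes had a median of −2.14 over 3 genes and HBM, a hemoglobin subunit, −2.93 ± 1.27, with the highest FS level in FS animal 7. For the 2 still tested with the 12 FS libraries the median was −0.42. Of 3 adipocyte markers 0 had a positive estimate (median −1.05, and −1.20 with the 12 FS libraries). Among them PLIN1 and PLIN4, which coat lipid droplets, had −1.26 and −1.05, and −1.20 and −1.27 with the 12, where PLIN4 reached an unadjusted p of 0.00341 (edgeR). The summed level of the 3 markers was 14.2, 12.9, 11 and 13 CPM in CPF animals 2, 3, 4 and 5 and from 7.86 to 42 CPM (median 21.2) in FS animals, so the CPF values lay within the FS range.

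CYP1A1, which the aryl hydrocarbon receptor induces, measured 0.566, 2.37, 1.64 and 1.79 CPM in CPF animals and reached 1038 CPM in FS animal 7, where the median of the FS animals was 7.01. Its estimate was −5.67 ± 2.27, and −2.40 with the 12 FS libraries. CYP1A2 went from −2.30 to −1.41 and NR1I2, the pregnane receptor, from −0.72 to −0.36. PER2, a core clock gene, went from −2.87 to −0.39. VEGFA, a growth factor for vessels, had −0.35 ± 0.14. HGF, the hepatocyte growth factor, had 1.04 ± 0.49 and 0.78, and BFAR, an inhibitor of apoptosis, −0.88 ± 0.29 and −1.03. HHIPL2 and FAM171A2, which complete the 12 genes with the smallest p on the negative side, had −1.26 ± 0.34 and −1.11 ± 0.31. The lists for insulin and IGF signalling, glucocorticoid targets, hypoxia, bile acids, heme and iron, complement, coagulation, detoxification, the clock, the cell cycle, cytoskeleton and matrix had medians between −0.18 and 0.23, and so had those for the pyruvate dehydrogenase kinases and the IL-10, JAK and STAT genes.

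Of the 23 contractile genes from the study's lists, which were chosen there on libraries of this series, 8 had a positive estimate (median −0.40). Over all genes 51.5% were positive. An unadjusted p under 0.05 was reached by 1 on the positive side (TPM1) and 2 on the negative, where 2.13% and 3.04% of all genes did. NEB and TNNT1, parts of the sarcomere, had −3.92 ± 1.73 and −2.73 ± 1.20, and skeletal actin, ACTA1, had −5.77 ± 2.71. These estimates come from few libraries: ACTA1 was at most 0.21 CPM in CPF animals, had a median of 0.133 CPM in FS animals, and stood at 49.5 in FS animal 11, 14 in FS animal 14 and 7.29 in FS animal 3. NEB and TNNT1 were also highest in FS animal 11.

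The named genes were set beside their values at the other timepoints, where 5 CPF and 18 FS libraries were available. The Baseline values of each gene below leave out 3 of these FS libraries, those of low albumin. PPP1R3C had 2.42, 0.43, 1.25 and 0.13 at Baseline without the 3 libraries of low albumin, FR2, FR8 and FR20, and in the same order PPP1R3B 2.001, 0.04, 1.11 and 0.15. AGXT was negative at each, −0.90, −1.56, −2.52 and −0.94, and GLS2 likewise, −0.70, −0.98, −1.999 and −0.31. FGF21 was positive at each, 2.64, 1.57, 1.69 and 1.08. CPT1A had −0.33, −0.16, −1.39 and −0.44. FOS had 0.60, 2.49, 1.998 and 0.29, and IL2RB 0.17, −0.38, −1.04 and 0.12. Most animals enter at each time, so the 4 values of a gene are not independent. The sets of animals were not identical. CPF animal 1 enters at Baseline, FR2 and FR20 but not at FR8, and FS animals 13, 14 and 16 are missing from the Baseline values. None of these genes passed both thresholds at any of the 4 times. At Baseline 1 of 12362 genes was called (0.00809%), and 3 of 11688 (0.0257%) without the libraries of low albumin, all with higher levels in CPF animals, with 964 (7.8%) and 895 (7.66%) genes at an unadjusted p under 0.05. SHROOM3 and NADK2 were among the 3. At FR2 and FR20 the calls were 0 of 11892 (0%) and 0 of 12307 (0%), with 664 (5.58%) and 400 (3.25%) genes at an unadjusted p under 0.05.

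**Figure D5:**
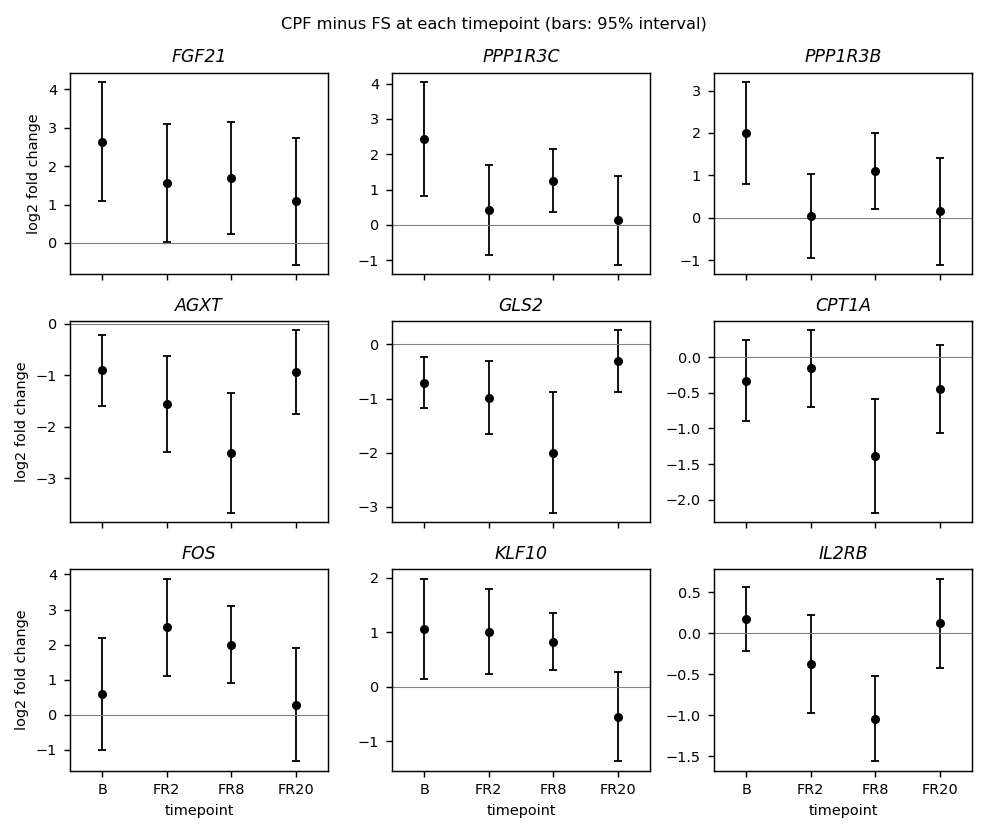
Log2 fold change, CPF minus FS, with its 95% interval (y axis) at Baseline (without the 3 libraries of low albumin), FR2, FR8 and FR20 (x axis) for 9 genes. FGF21 is highest at Baseline, where it is 2.64, and AGXT and GLS2 have their lowest values at FR8, −2.52 and −1.999.

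The change from Baseline to FR8 was compared between the groups with a term for each animal. No gene passed (0 of 13923, 0%, edgeR's quasi-likelihood test), and 653 reached an unadjusted p under 0.05 (4.69%). For CPT1A the difference was −1.42 ± 0.59 and for IL2RB −1.44 ± 0.41 (unadjusted p = 0.000761), for AGXT −1.78 ± 0.90 and for FOS 2.20 ± 1.18. The FS side of this comparison holds the 3 animals whose Baseline library had low albumin and whose FR8 library was closest to Baseline.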

How the data were processed

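The study enriched mRNA from the total RNA of liver biopsies with oligo-dT beads and made libraries from it (TruSeq, single Illumina reads). The authors aligned reads to Sscrofa10.2 with TopHat 1.5.0 and deposited counts per pig Ensembl gene from HTSeq, not normalized. HTSeq's strand and overlap settings are not given in the sources used here. All 92 columns matched a sample. Symbols came from a gene name table (11804 identifiers) and the study's tables (700 more). Lists take the identifier with the most reads where a symbol has several, which left out a further tested identifier of 8 symbols, 1 of them (CRP) at an unadjusted p under 0.05.

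The FR8 counts of 4 CPF and 18 FS animals were tested with edgeR 4.0.16 (TMM scaling, quasi-likelihood F test, 2-sided, Benjamini-Hochberg over all genes) after a filter of a summed CPM of at least 10. Called genes had a log2 fold change of 1 or more in either direction at an adjusted p below 0.05. CPM are TMM-scaled. DESeq2 1.42.0, limma 3.58.1, other scalings, filters, terms, thinning to the lowest total (8855156) and leaving out animals were alternatives. The test was checked on simulated counts. Depth sets the precision of low genes, and each p-value sets the difference between the groups against the spread between animals.

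The text names the 12 genes of each direction with the smallest p and list members at the extremes or with p under 0.05. It also names genes the study's text names for feeding, and abundant markers. Chosen after their values were seen were TMCO6, SUPT16H, SHROOM3, NADK2, PLIN4 and the second identifiers of CRP and ARG1. Members and lists were chosen with earlier results of these data known. Results for some genes are not reported here.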

Additional observations from a re-analysis of the deposited data

Results flagged for a closer look

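In 10 of the 89 genes named, 1 CPF animal stood apart from the other 3 at FR8 by Dixon's test. The test sets the gap to the nearest value against the range of the 4 values. It does not measure the size of the difference, which was small for TMCO6 and SUPT16H. In 7 of the 10 genes the animal that stood apart was CPF animal 3, which died. The genes were named partly by these same values and share the 4 animals. The test's nominal rate of 1 in 20 is therefore no yardstick for this count. In CPF animal 3 the level stood above the others for PDK4 (207.6 CPM against 27.4 to 56.6), GLS2 (18.61 against 6.13 to 7.99), MCL1 (68.57 against 54.1 to 56.5), LOX (14.53 against 3.26 to 4.53) and HBM (0.7232 against 0 to 0.105). It stood below them for MID1IP1 (12.82 CPM against 27.0 to 27.4) and SERPINA7 (57.66 against 157 to 175.7). CPF animal 5 had 14.92 CPM of TMCO6 against 14.4 to 14.5. CPF animal 2 had 5.282 CPM of FAS against 9.40 to 9.77, and CPF animal 4 had 64.05 CPM of SUPT16H against 57.2 to 57.8. Only the 4 CPF values were looked at in this way.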

How the results depend on the processing

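No gene was called by edgeR or limma under any alternative at FR8, and the lowest and highest counts with 1 animal left out were both 0. DESeq2 called 7, 0 higher and 7 lower, and 9 with the 12 FS libraries, 1 higher and 8 lower. For the change from Baseline, the study's own design with edgeR's likelihood ratio test gave 32 calls of 13923 genes, all 32 on the positive side. With the quasi-likelihood test 0 were called with no animal terms or without the low albumin animals. Design and test changed together here, so the 32 calls cannot be credited to either alone. The fit with 32 calls also kept the FS animals whose Baseline library had low albumin, and it was not run without them. At Baseline the median fold change of the study's contractile genes was −6.71 with all libraries and −0.50 without those of low albumin. The part of these libraries in the 32 calls was not tested. Non-overlapping genes numbered 221 in the animals that lived (2 CPF animals), 2 after thinning, 3 with the failed library kept, 9 without the 5 FS libraries closer to another timepoint, 13 with the 12 FS libraries, and 5 to 33 with 1 animal left out (33 without CPF animal 3, 29 without CPF 4, 23 without CPF 2, 17 without CPF 5, 14 without FS 15, 9 without FS 17). Fewer values in a group make non-overlap easier. Intervals within −1 to 1 numbered 4398 in the animals that lived and 5855 to 7527 with 1 animal left out, and unadjusted p under 0.05 numbered 460 to 678.

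Of the 89 genes, 77 kept their direction under each alternative. The values that reversed were as follows. Without the 5 FS libraries, with the 12 FS libraries and with these under DESeq2, LPIN1 had 0.187, 0.125 and 0.128, IDI1 0.054, 0.006 and 0.011, and SERPINA6 0.208, 0.23 and 0.236. TAT had 0.007 and 0.013 under the last pair, and FGA −0.002 under the first. In the animals that lived, JUNB had −0.045, STAT3 0.133, IL10 −0.17 and ARG1 −0.978. With the survival term IL10 had −0.021, ARG1 −0.071 and ENO3 0.155. With FR2, FR8 and FR20 together and the animal as a block, IL10 had −0.129, LBP 0.029, ENO3 0.096 and PYGM 0.08. IL10 had −0.086 with a term for the animal code's last digits and −0.012 without the 3 FS libraries closest to Baseline. ARG1 had −0.034 with the failed library kept. ENO3 had 0.103 under DESeq2, 0.237 under DESeq2 with the 12 FS libraries and 0.076 under limma, and PYGM 0.237 under limma. With 1 animal left out, STAT3 ran from −0.465 to 0.141, IL10 from −0.253 to 0.447, ARG1 from −0.496 (without CPF 3) to 0.433, and ENO3 from −0.568 to 0.089 and PYGM from −0.595 to 0.08 (both highest without FS 11). The cause of these reversals was not tested. No paired analysis was possible because the groups at FR8 are separate animals. The alternatives that leave out FS libraries by their rank correlation or their block of genes at 0 were chosen after seeing the data. With 4 CPF libraries, the intervals given show which differences remained possible, and the smallest difference that could have been detected was not tested.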
